A study of Mus musculus with 8 samples.

Results

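The Eph receptors, their ephrin ligands, the Slit ligands with their Robo receptors, and netrin-1 with its receptors are the genes described here, as sites of nuclear factor I (NFI) binding in the developing mouse cerebellum. The 35 genes were chosen by name, with earlier results of these data known. They comprise 9 class A and 5 class B Eph receptors, 7 ephrins, 3 Slits, 4 Robos, netrin-1 (Ntn1) and 6 netrin receptors. They are 35 of 21866 protein-coding genes of the GENCODE M21 annotation. A bound region was assigned to a gene when it overlapped the gene body, or when the nearest protein-coding transcription start site (TSS) lay within 100 kb and was that of the gene. By that rule 318 of 46070 bound regions belonged to the 35 genes. The rule names a neighbour and not a target, and several regions of a gene are not independent of each other.

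Binding of NFIA, NFIB and NFIX had been measured by chromatin immunoprecipitation with sequencing (ChIP-seq) in granule neuron progenitors, which divide in the postnatal cerebellum to make granule neurons. The cells were isolated at postnatal day 7, and every factor has a pair of libraries, a CD1 one and a Mixed one, from a mixed background that the labels liken to the outbred CD1 strain, so that the libraries are called NfiA CD1, NfiA Mixed and so on. The antibodies were from Abcam (NFIA) and Sigma Aldrich (NFIX), while for NFIB the sample labels name Novus Biologicals and the series text names Sigma. The 2 input samples were not analysed here, no library carried a genetic or drug treatment in the labels, and nothing in the labels says that libraries came from separate animals. Peaks measure bound DNA and not RNA, so the labelled cell type was not checked against marker genes.

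Axon guidance receptors read signals that steer growing axons and migrating neurons. Ephrins are held at the cell surface, class A by a lipid anchor and class B by a transmembrane stretch, and bind Eph receptors, which are receptor tyrosine kinases, on a neighbouring cell. Slits are secreted proteins that mostly repel through Robo receptors, while netrin-1 attracts through Dcc and neogenin (Neo1) and repels through the Unc5 receptors. In the cerebellum, ephrin-B signalling is known to alter the attraction of granule cells to a chemokine, and mouse mutants of Unc5c have granule cells outside the normal border of the cerebellum. NFI factors bind DNA as dimers, at the palindrome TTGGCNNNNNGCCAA, and more weakly at a single arm of it.

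The peak lists held 7497 to 36431 peaks. NfiX CD1 had the shortest list and NfiB CD1 the longest, and the depth of the libraries in reads is unknown here. The 35 genes took 65 to 270 peaks of a library, 0.684 to 0.867% of its list. Their median fold enrichment was 5.49 to 6.34 over the libraries, against 5.51 to 6.03 for all other peaks. On the log2 scale the difference of the medians, the 35 genes minus the rest, was 0.04 ± 0.07 (SD, n = 6 libraries). It was positive in 4 of the 6 libraries and negative in NfiA Mixed and NfiX Mixed, and its mean was smaller than its spread over the libraries. The largest differences were 0.142 in NfiB CD1 and 0.110 in NfiB Mixed. In the NfiA and NfiX libraries it was −0.0375 to 0.0266. The spread is thus over libraries of different factors and not over replicates. The fold enrichment, given by the authors' peak caller, is the signal at the summit over the local background. Folds are read below within a list, as the percentile of a peak among the peaks of its own library, and regions are ranked by their mean log2 fold over the same 6 lists. Folds of different libraries depend on the depth and background of each and were not compared, and a longer list holds more weak peaks, which raises the percentile of a strong one.

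Most of the guidance genes had bound regions. Of the 35 genes, 27 had a region of at least 1 library, 77.1% (95% Wilson interval 61.0 to 87.9), against 48.6% of all protein-coding genes. A region common to all 6 libraries was assigned to 20 of the 35 genes, 57.1% (40.9 to 72.0), against 13.2% of all genes. Both NfiA libraries shared a region at 23 of the genes, 65.7% against 23.9% of all genes. For NfiB the count was 26, 74.3% against 35.6%, and for NfiX it was 20, 57.1% against 14.7%. The intervals cover counting error only, and the genes are related to each other, so no test was made on these shares.

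The guidance genes are long, and long genes hold more regions under this rule. Their median length was 143 kb, against 17.4 kb for all protein-coding genes. Among genes under 30 kb, 2 of 13 guidance genes had a common region, 15.4% (4.33 to 42.2), against 6.80% of all 14247 genes of that length. From 30 to 100 kb it was 3 of 4, 75.0% (30.1 to 95.4), against 15.1% of 5135 genes. From 100 to 300 kb it was 5 of 7, 71.4% (35.9 to 91.8), against 37.9% of 1919 genes. At 300 kb or more it was 10 of 11, 90.9% (62.3 to 98.4), against 72.6% of 565 genes. The guidance genes had the higher share in each of the 4 classes, but the share of all genes lay inside their interval in the shortest class and in both classes above 100 kb. With a common region at 57.1% and any region at 77.1% of the guidance genes, all genes had 34.6 and 69.0% when averaged over the length classes of the 35. The first average lies below the interval of the guidance genes given above and the second lies inside theirs. Per megabase of assigned sequence the guidance genes held 5.51 common regions (95% Poisson interval 4.17 to 7.13), against 2.35 for all genes. By class the densities were 3.35 against 1.74, 8.11 against 2.08, 8.22 against 2.93 and 4.84 against 3.22 common regions per megabase, from the shortest to the longest genes.

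**Figure D1:**
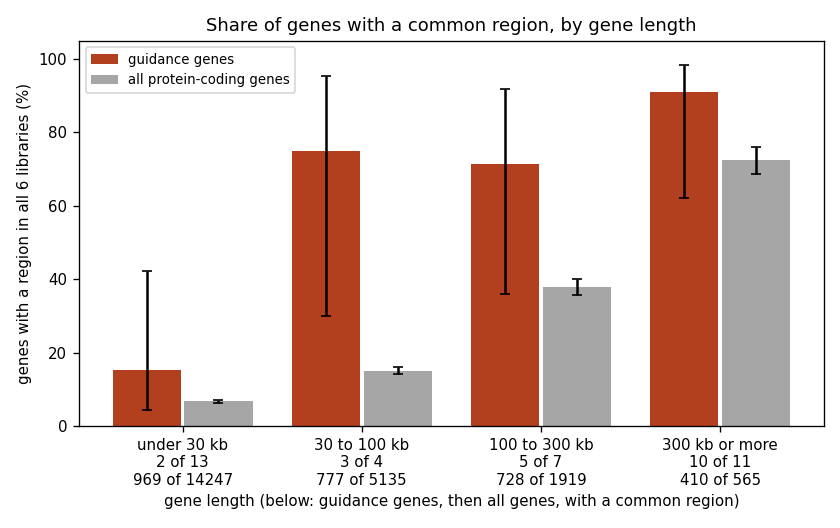
Share of genes with a region in all 6 libraries (y axis, percent) by gene length (x axis), for the guidance genes (red) and all protein-coding genes (grey); error bars are 95% Wilson intervals. The guidance genes lie above all genes in each length class, with 2 of 13, 3 of 4, 5 of 7 and 10 of 11 genes, and their intervals are wide.

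A larger share of the guidance genes' regions than of all regions was common to the 6 libraries, and the other patterns were near the background. Of their 318 regions 57 were common to the 6 libraries, 17.9% (14.1 to 22.5), against 13.2% of all regions. The common share was 19.5 against 13.1% with a −log10 q of 5 or more, and 34.6 against 25.6% with lists of equal length. Without NfiX CD1, the shortest list, 28.6% were common to the other 5 libraries, against 25.3% of all regions. A further 34 regions, 10.7%, held a peak of every library but NfiX CD1, against 12.1% of all regions. Peaks of both NfiB libraries and of no other library made up 29 regions, 9.12% against 9.73%. Regions seen in 1 library were 91 of 318, 28.6% against 31.9%. No region of these genes held both NfiA libraries alone or both NfiX libraries alone, against 0.0803% and 0.122% of all regions. All but the common share were close to the background, and the common share was closer to it without NfiX CD1.

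**Figure D2:**
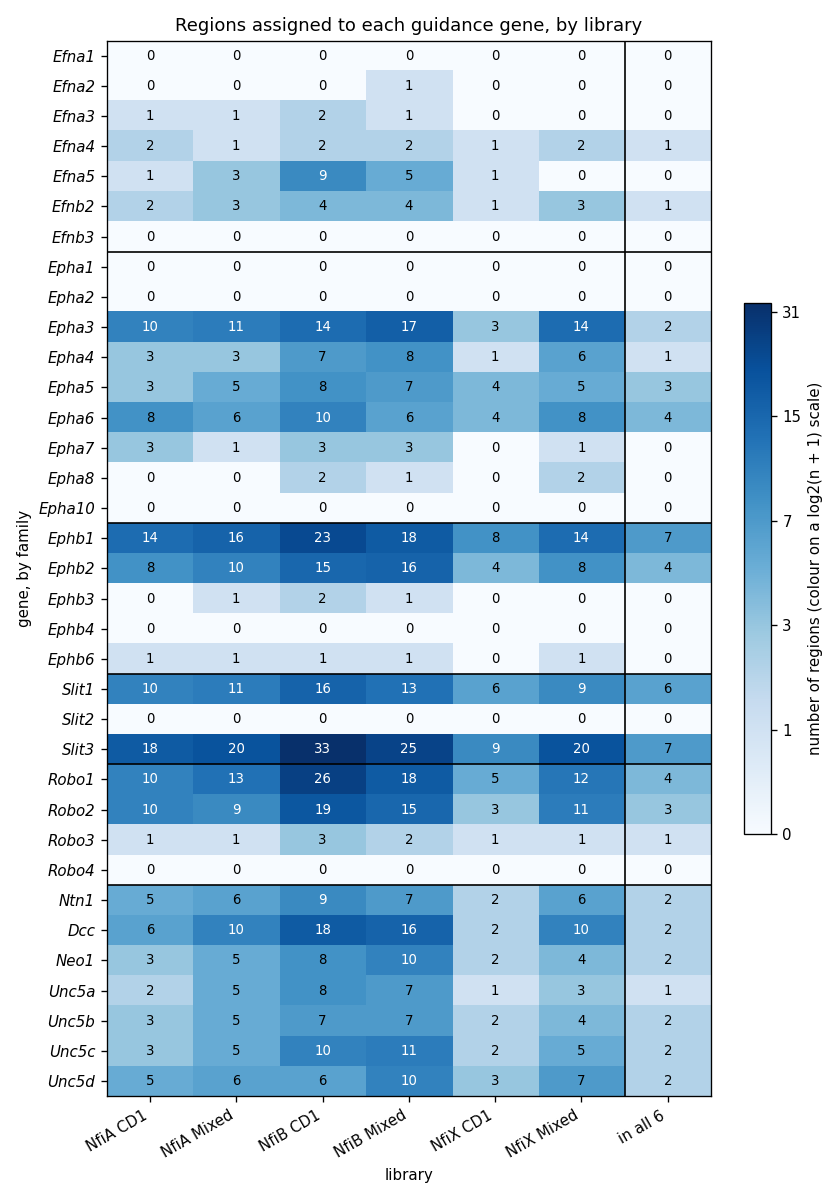
Number of bound regions assigned to each of the 35 guidance genes (rows, grouped by family) in each library (columns), with the number common to all 6 in the last column. Slit3, Robo1 and Ephb1 have the most regions, and 8 genes, among them Slit2, have 0 in every library.

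Bound regions lay mostly within introns, as did those of other long genes. Of the 318 regions 243 had the summit of their strongest library in an intron, 76.4%, against 54.5% of the regions assigned to all protein-coding genes. Another 52 lay upstream of the gene, 11 downstream, 8 in a coding exon and 4 in an untranslated exon. The rule assigns a region in a gene body to that gene at any distance from its TSS, which favours introns of long genes. At genes of 100 kb or more the intronic share was 80.99% for the guidance genes, against 80.96% for all. By class it was 69.7 against 73.5% from 100 to 300 kb, and 85.1 against 89.6% at 300 kb or more. Of the 57 common regions 49 were intronic, 0 lay within 1 kb of a TSS of their gene, against 3.29% of common regions of all genes, and 30 lay over 100 kb from it. Within genes of 100 kb or more those 30 were 58.8% of the common regions, against 36.4% in all genes of that length. The direction differed by class, with 13.3 against 16.5% from 100 to 300 kb, and 77.8 against 56.7% at 300 kb or more. For 13 of the 57, 22.8%, the closest protein-coding TSS was that of another gene, against 12.8% over all genes and 19.6% over genes of 100 kb or more. For another 18 it was the gene's own, more than 100 kb away. Which gene a region serves was not tested. The summits of the 6 libraries spread over 55 bp at the median in the 57 common regions, against 62 bp in all other common regions.

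**Figure D3:**
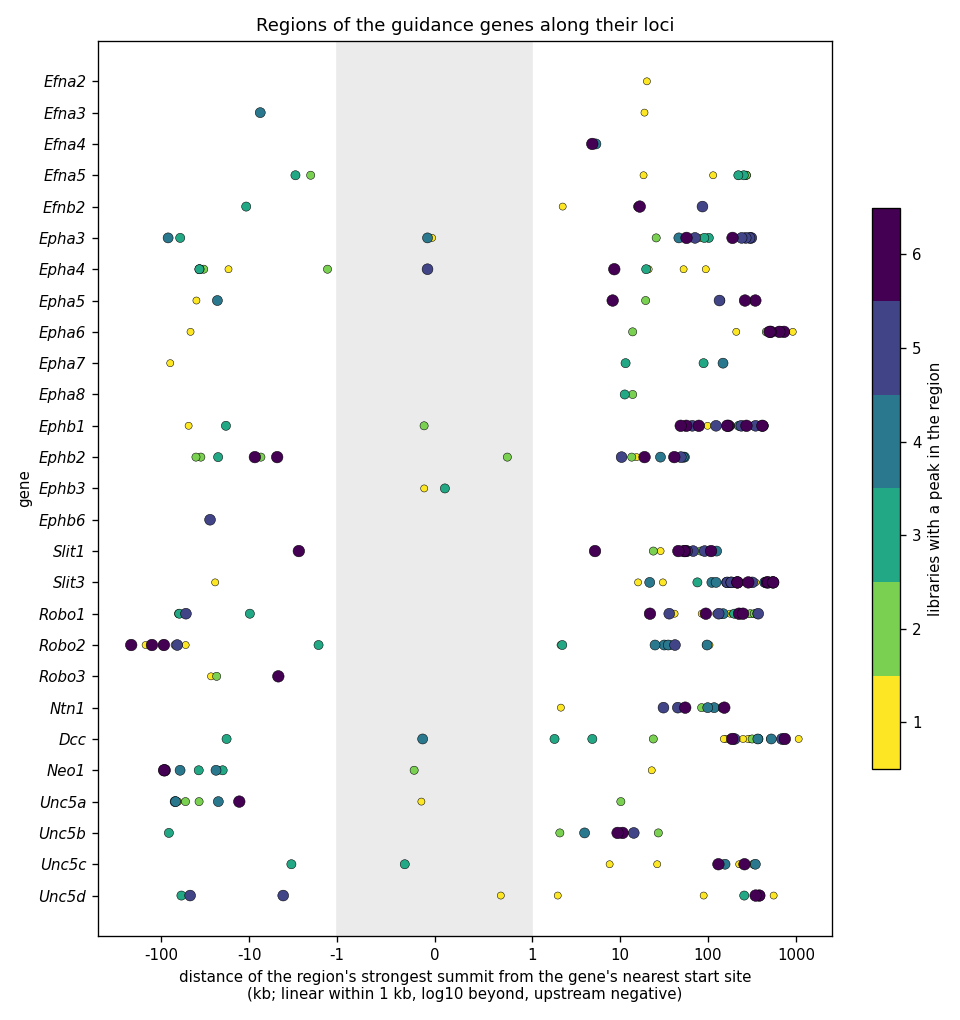
Each point is 1 bound region of a guidance gene (rows), placed by the distance of its strongest summit from the nearest start site of that gene (x axis, kb, linear within 1 kb and log10 beyond, upstream negative); darker and larger points held peaks of more libraries and the grey band marks 1 kb to each side. Regions of all 6 libraries lie outside the band, and most of them lie downstream of a start, within the gene.

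The ephrin ligands are mostly short genes, with a median length of 9.41 kb. Of the 7 genes 5 had a region and 2, Efna4 and Efnb2, had a common one, 28.6% against 13.2% of all genes. Per megabase the ephrin genes held 3.18 common regions, against 2.35 for all genes. Efnb2 encodes ephrin-B2, a transmembrane ligand that can itself signal into its cell. Its common region in intron 3, 16.7 kb from the TSS (chr8:8622079-8622906), had folds of 7.24 (CD1) and 6.97 (Mixed) for NfiA, 10.6 (CD1) and 9.46 (Mixed) for NfiB, and 5.40 (CD1) and 8.02 (Mixed) for NfiX. It stood at the 36.9 percentile of the NfiX CD1 list and at the 71.4 to 85.6 percentile of the other lists. Efna1, Efna3 and Efna4, genes of lipid-anchored ligands, lie side by side on chromosome 3, and the common region at the 3′ end of Efna4 (chr3:89333006-89333491) had folds of 5.84 (CD1) and 5.39 (Mixed) for NfiA, 11.3 (CD1) and 7.67 (Mixed) for NfiB, and 4.70 (CD1) and 4.90 (Mixed) for NfiX.

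Between Efna4 and Efna3 a region 7.50 kb upstream of Efna3 (chr3:89330277-89330684) had folds of 4.43 (CD1) and 4.9997 (Mixed) for NfiA and 7.86 (CD1) and 7.06 (Mixed) for NfiB, and no NfiX peak. Efna1 had no region, and the nearest ones lay 25.2 and 22.7 kb away on its sides. Efna5, which encodes ephrin-A5 and at 277 kb is the longest ephrin gene, had 9 regions and none common: 9 held a peak of NfiB CD1, 5 of NfiB Mixed, 3 of NfiA Mixed, 1 of NfiA CD1, 1 of NfiX CD1 and 0 of NfiX Mixed. Of genes of 100 to 300 kb 81.2% had fewer regions than Efna5. Efna2 had 1 region, in NfiB Mixed alone with a fold of 4.47, and Efnb3 had none.

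Among the class A Eph receptors 3 of the longest genes carried the strongest regions. Of the 9 genes 6 had a region and 4, Epha3, Epha4, Epha5 and Epha6, had a common one. The shares of all genes were 48.6 and 13.2%. At 300 kb or more, the length of Epha3, Epha5 and Epha6, they were 98.1 and 72.6%. The strongest of the 57 common regions lay in intron 5 of Epha6 (chr16:60101911-60102705), with folds of 17.4 (CD1) and 23.0 (Mixed) for NfiA, 34.5 (CD1) and 27.8 (Mixed) for NfiB, and 17.2 (CD1) and 20.2 (Mixed) for NfiX. Its fold stood on average at the 99.2 percentile of the 6 lists, and the summits held 55 to 157 fragments. It lay 503 kb from the TSS of Epha6 and closer to that of Arl6. Epha6 had 3 further common regions, 1 in the same intron, 1 in intron 9 and 1 in intron 11.

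Epha5 had 3 common regions. The strongest, in intron 4 (chr5:84152814-84153645), had folds of 17.5 (CD1) and 13.2 (Mixed) for NfiA, 29.5 (CD1) and 17.2 (Mixed) for NfiB, and 10.5 (CD1) and 12.7 (Mixed) for NfiX. The others lay in intron 1, 8.21 kb from the TSS, and in a coding exon described below. The strongest region of Epha3, in intron 3 (chr16:63673124-63673930), had folds of 11.0 (CD1) and 11.9 (Mixed) for NfiA, 26.6 (CD1) and 20.7 (Mixed) for NfiB, and 13.6 (CD1) and 16.9 (Mixed) for NfiX. It stood at the 92.3 percentile or higher of every list. Epha4 encodes a receptor that binds ephrins of both classes. Its common region overlapped the start of intron 3 and the edge of exon 3, 8.56 kb from the TSS (chr1:77506149-77506826), with folds of 12.2 (CD1) and 12.7 (Mixed) for NfiA, 16.5 (CD1) and 17.996 (Mixed) for NfiB, and 8.36 (CD1) and 12.95 (Mixed) for NfiX.

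A coding exon that held peak summits recurred among the class A receptor genes. Of the 8 regions with their strongest summit in a coding exon, that of Epha5 was the common one. It covered exon 16 of 18, a 194-base exon whose counterparts in the other Eph genes were found by alignment after the regions had been seen. The exon codes for the end of the tyrosine kinase domain. The matching exon overlapped a region in Epha3 (5 libraries), Epha4 (5 libraries), Epha5 (6 libraries) and Epha7 (4 libraries), and in 0 of the other 10 Eph genes. Peak summits fell inside the exon in Epha3, Epha5 and Epha7, in every library with a peak there. In Epha4 the summits lay 44 to 104 bases before the exon, in the intron, and that region also spans an annotated internal TSS.

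The exons of these 4 genes are shown on the strand of the gene because each overlapped a region. They come from GENCODE M21 transcripts on mm10, at chr16:63566579-63566772 (minus strand) for Epha3, chr1:77377414-77377607 (minus strand) for Epha4, chr5:84071044-84071237 (minus strand) for Epha5 and chr4:28961289-28961482 (plus strand) for Epha7. Capitals mark TTGGCA, the NFI arm TTGGC followed by an A, or TGCCAA where it is read on the other strand. Copies of TTGGC or GCCAA without that further base are not marked.
Epha3: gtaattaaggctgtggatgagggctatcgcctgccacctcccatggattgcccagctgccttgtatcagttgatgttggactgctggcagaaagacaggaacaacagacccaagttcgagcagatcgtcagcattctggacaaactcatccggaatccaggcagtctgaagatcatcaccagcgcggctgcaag
Epha4: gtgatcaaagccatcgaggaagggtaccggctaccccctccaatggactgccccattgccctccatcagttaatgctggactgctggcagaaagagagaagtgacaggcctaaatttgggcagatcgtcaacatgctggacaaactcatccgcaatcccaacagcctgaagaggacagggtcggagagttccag
Epha5: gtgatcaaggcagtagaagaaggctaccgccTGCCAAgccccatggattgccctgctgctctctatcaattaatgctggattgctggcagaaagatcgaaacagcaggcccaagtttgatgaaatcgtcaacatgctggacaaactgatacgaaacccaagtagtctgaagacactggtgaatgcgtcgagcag
Epha7: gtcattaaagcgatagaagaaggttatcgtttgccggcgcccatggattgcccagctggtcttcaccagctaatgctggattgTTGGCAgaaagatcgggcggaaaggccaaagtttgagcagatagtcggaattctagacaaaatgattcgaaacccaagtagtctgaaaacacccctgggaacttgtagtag

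The 4 exons are equally long and, compared base by base without gaps, shared 65.5 to 74.7% of their bases in pairs. The longest run of identical bases in a pair was 23, between Epha4 and Epha5. The arm as marked, TTGGCA or TGCCAA, was present in Epha5, from base 32, and in Epha7, from base 84, and in neither of the others. The Epha7 exon also held GCCAA, the right arm of the palindrome without the T before it, after the marked copy. No copy of the exon held the palindrome. In the stretch of this exon within 50 bases of the Epha5 summit, TTGGCA was also present in Epha10, Ephb1, Ephb4 and Ephb6, which had no region there. The Epha5 region had folds of 5.60 (CD1) and 7.59 (Mixed) for NfiA, 9.62 (CD1) and 10.9 (Mixed) for NfiB, and 4.08 (CD1) and 9.09 (Mixed) for NfiX. That of Epha3 had folds of 5.46 (CD1) and 5.33 (Mixed) for NfiA, 5.18 (CD1) and 6.41 (Mixed) for NfiB, and 3.66 for NfiX Mixed. That of Epha7 had folds of 5.45 for NfiA CD1, 4.81 (CD1) and 6.79 (Mixed) for NfiB, and 6.75 for NfiX Mixed, from 10 to 19 fragments at the summit. NfiX CD1 had a peak in Epha5 alone among them.

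Over the 14 Eph genes 9 of 261 coding exons overlapped a region, 3.45%, against 1.26% of 231728 coding exons of all genes. A summit lay inside 3 of the 261, 1.15%, and all 3 were this exon, against 0.595% of all coding exons. The exons were aligned because of what was seen in Epha5, so these counts are a description.

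**Figure D4:**
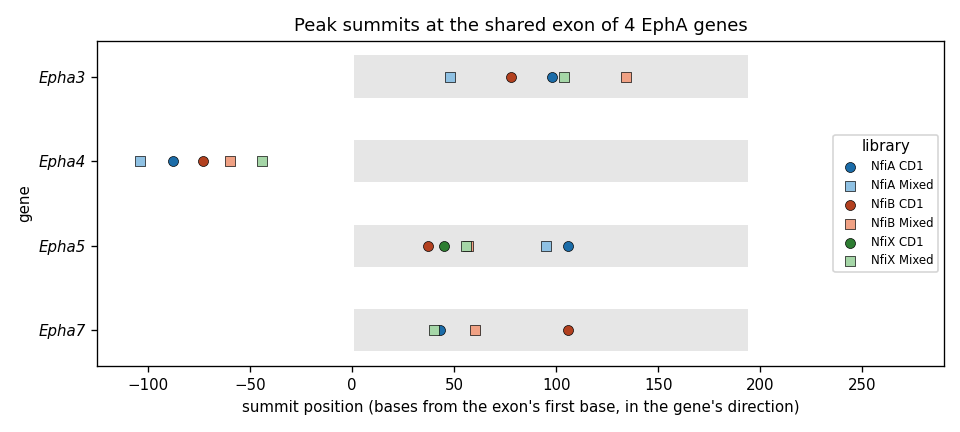
Position of each library's peak summit (x axis, bases from the first base of the exon in the direction of the gene) at the 194-base exon (grey bar) of 4 class A Eph receptor genes (rows). All summits of Epha3, Epha5 and Epha7 lie inside the exon, and those of Epha4 lie 44 to 104 bases before it.

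The other class A receptor genes had no common region. Epha7 had 4 regions, which is also the median of genes of 100 to 300 kb. Epha8 had 2, more than 83.4% of genes under 30 kb, the wider-shared of them in intron 3 with folds of 4.10 in NfiB CD1, 4.35 in NfiB Mixed and 4.75 in NfiX Mixed. Epha1, Epha2 and Epha10, which encodes a receptor without kinase activity, had none.

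Of the 5 class B receptor genes 4 had a region, and Ephb1 and Ephb2 had common ones, against 48.6 and 13.2% of all genes. Ephb1 had 27 regions, 7 of them common, and Ephb2 had 17, 4 of them common. Ephb2 had more common regions than 97.3% of genes of 100 to 300 kb, and Ephb1 had more than 93.98% of genes of 300 kb or more. The strongest region of Ephb1, in intron 3 (chr9:102183666-102184478), had folds of 9.07 (CD1) and 12.8 (Mixed) for NfiA, 13.02 (CD1) and 16.8 (Mixed) for NfiB, and 6.78 (CD1) and 16.8 (Mixed) for NfiX. It stood at the 64.7 percentile of the NfiX CD1 list and at the 85.1 percentile or higher of the others. Ephb2 had its strongest region in intron 3 (chr4:136702414-136702967), with folds of 6.09 (CD1) and 8.20 (Mixed) for NfiA, 13.9 (CD1) and 11.4 (Mixed) for NfiB, and 4.56 (CD1) and 7.75 (Mixed) for NfiX. A second common region lay 3.00 kb from it in the same intron. Ephb6, whose receptor lacks kinase activity, had 1 region, 28.0 kb upstream, in every library but NfiX CD1, with folds of 4.32 to 7.45. Ephb3 had 2 regions, both at a TSS, and Ephb4, known from blood vessels, had none.

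The 3 Slit genes, whose secreted products bind Robo receptors, held both the highest count and a count of 0. Slit3 had 37 regions, the most of the 35 genes, and 7 common ones. Slit1 had 16 regions and 6 common ones, more common regions than 99.5% of genes of 100 to 300 kb. Slit2, at 325 kb, had 0 regions in any library. It was 1 of 11 genes among 565 of 300 kb or more, 1.95%, with no region. The nearest regions lay 210 kb and 89.1 kb from its ends, each in 1 library, and the stretch between them was 624 kb long.

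The strongest Slit1 region, in intron 18 (chr19:41634749-41635494), had folds of 14.5 (CD1) and 17.3 (Mixed) for NfiA, 20.96 (CD1) and 19.7 (Mixed) for NfiB, and 8.11 (CD1) and 17.1 (Mixed) for NfiX, and the TSS of Gm340 was closer to it than that of Slit1. Another common region lay in intron 1, 5.17 kb from the Slit1 TSS, with folds of 6.67 to 15.9, and a further one lay 2.73 kb upstream of it with folds of 3.82 to 10.3. The strongest Slit3 region by mean fold, in intron 4 (chr11:35407740-35408256), had folds of 5.97 (CD1) and 15.7 (Mixed) for NfiA, 8.30 (CD1) and 9.36 (Mixed) for NfiB, and 5.04 (CD1) and 10.1 (Mixed) for NfiX. It stood at the 98.0 percentile of the NfiA Mixed list, and between the 28.3 and the 85.02 percentile of the others. The 7 common regions of Slit3 were of moderate strength, with folds of 3.67 to 15.7.

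Of the 4 Robo receptor genes 3 had regions, and each of those had a common one, against 48.6 and 13.2% of all genes. Robo1 and Robo2 are longer than 300 kb, and of all genes of that length 98.1% had a region and 72.6% a common one. Robo1 and Robo2 encode the main neuronal Slit receptors. Robo1 had 30 regions and 4 common ones, and its strongest, in intron 2 (chr16:72887969-72888536), had folds of 16.2 (CD1) and 12.6 (Mixed) for NfiA, 23.1 (CD1) and 17.4 (Mixed) for NfiB, and 8.39 (CD1) and 9.77 (Mixed) for NfiX. It stood at the 80.9 percentile or higher of every list. Robo2 had 23 regions and 3 common ones, all in intron 2, and its strongest (chr16:74054955-74055950) had folds of 9.08 (CD1) and 13.7 (Mixed) for NfiA, 18.2 (CD1) and 16.7 (Mixed) for NfiB, and 9.20 (CD1) and 14.2 (Mixed) for NfiX.

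Robo3, whose product is known for the crossing of the midline by commissural and hindbrain axons, had 3 regions, all upstream. The common one, 4.67 kb upstream of the TSS (chr9:37437720-37438575), had folds of 7.96 (CD1) and 8.07 (Mixed) for NfiA, 8.31 (CD1) and 6.13 (Mixed) for NfiB, and 8.65 (CD1) and 8.76 (Mixed) for NfiX. It stood at the 59.3 percentile of the NfiB Mixed list and at the 75.3 to 82.9 percentile of the others. Robo4, known from endothelial cells, lies next to Robo3 and had no region of its own, and this region was 22.6 kb from its end. A Robo1 coding exon held a region in every library but NfiX CD1 (chr16:73035190-73036086), with folds of 6.09 (CD1) and 5.21 (Mixed) for NfiA, 9.30 (CD1) and 8.19 (Mixed) for NfiB, and 5.83 for NfiX Mixed.

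Netrin-1 and its receptors were the one family in which every gene had a common region, 7 of 7, against 13.2% of all genes. The shortest of the 7, Unc5a, is 56.6 kb long. Among all genes a common region was held by 15.1% from 30 to 100 kb, 37.9% from 100 to 300 kb and 72.6% at 300 kb or more. The family's locus density, 4.17 common regions per megabase, was below the 5.51 of the 35 genes, and the genes had 1 or 2 common regions each. Ntn1, the secreted ligand, had 9 regions, all within the gene. The stronger of its common regions, in intron 3 (chr11:68331429-68332297), had folds of 8.80 (CD1) and 8.16 (Mixed) for NfiA, 15.6 (CD1) and 12.9 (Mixed) for NfiB, and 6.35 (CD1) and 12.5 (Mixed) for NfiX. Dcc, the gene of the attractive receptor and at 1097 kb the longest of the 35, had 23 regions. Its stronger common region, in intron 1 (chr18:72162118-72162879), had folds of 7.33 (CD1) and 6.95 (Mixed) for NfiA, 11.1 (CD1) and 8.36 (Mixed) for NfiB, and 5.07 (CD1) and 7.25 (Mixed) for NfiX. Its promoter region (chr18:72351006-72351372) had folds of 3.86 for NfiA Mixed, 4.84 (CD1) and 4.50 (Mixed) for NfiB, and 3.84 for NfiX Mixed. The 2 common regions of Dcc come to 1.67 per megabase, the lowest density among the genes with any.

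Neo1 encodes neogenin, which binds netrins and repulsive guidance molecules. Of its 10 regions 1 overlapped the gene, and its 2 common regions lay side by side, 91.8 and 93.4 kb upstream of the TSS, within 0.736 kb of each other. The stronger (chr9:59128007-59128554) had folds of 10.1 (CD1) and 7.33 (Mixed) for NfiA, 13.4 (CD1) and 9.28 (Mixed) for NfiB, and 6.68 (CD1) and 9.32 (Mixed) for NfiX. Both lie near the 100 kb limit of the rule, and with a limit of 50 kb they would not be assigned.

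The Unc5 genes encode the repulsive netrin receptors. Unc5b had a pair of common regions in intron 1, 10.7 and 9.34 kb from the TSS. The stronger (chr10:60820355-60821071) had folds of 9.76 (CD1) and 8.85 (Mixed) for NfiA, 13.8 (CD1) and 13.4 (Mixed) for NfiB, and 6.62 (CD1) and 14.02 (Mixed) for NfiX, and 58 to 187 fragments at the summits. The stronger Unc5d region, in intron 3 (chr8:28871065-28871604), had folds of 9.67 (CD1) and 11.0 (Mixed) for NfiA, 12.6 (CD1) and 12.8 (Mixed) for NfiB, and 8.94 (CD1) and 13.8 (Mixed) for NfiX. The Unc5b region stood at the 62.96 percentile of the NfiX CD1 list and at the 84.7 percentile or higher of the others, and the Unc5d region at the 84.3 percentile or higher of every list. The stronger Unc5c region, in intron 3 (chr3:141725466-141725825), had folds of 5.60 (CD1) and 6.01 (Mixed) for NfiA, 10.5 (CD1) and 9.09 (Mixed) for NfiB, and 6.10 (CD1) and 6.17 (Mixed) for NfiX, from 11 to 32 fragments. The common region of Unc5a, 13.001 kb upstream (chr13:54936181-54936593), was the weakest of the 20 strongest regions, with folds of 4.05 (CD1) and 4.98 (Mixed) for NfiA, 5.57 (CD1) and 5.38 (Mixed) for NfiB, and 3.87 (CD1) and 4.09 (Mixed) for NfiX.

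**Figure D5:**
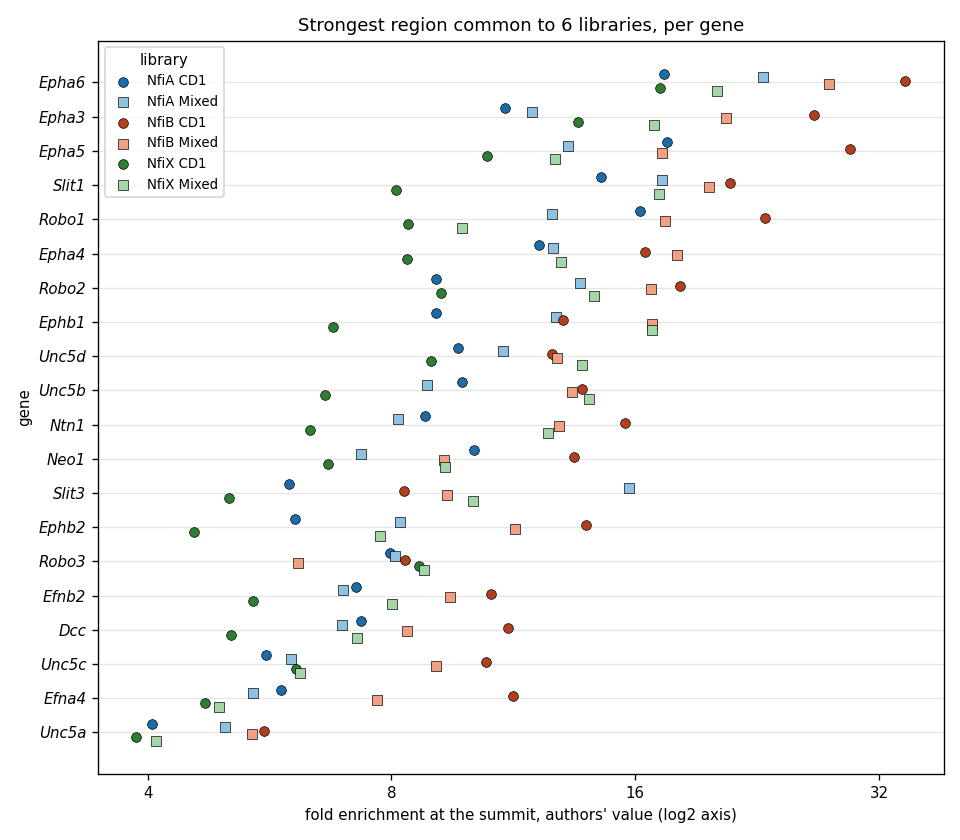
Fold enrichment at the summit (x axis, log2 axis, the authors' values) in each of the 6 libraries (colours) for the strongest common region of each of 20 guidance genes (rows, ordered by mean log2 fold). Epha6 is highest, with 17.2 to 34.5, and Unc5a is lowest, with 3.87 to 5.57.

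The common regions of the guidance genes had folds near those of the other common regions. Their median fold was below that of the other common regions in 5 of the 6 libraries. It was 7.47 against 7.96 in NfiA CD1, 8.16 against 8.63 in NfiA Mixed, 11.1 against 11.9 in NfiB CD1, 10.2 against 10.4 in NfiB Mixed and 8.27 against 9.31 in NfiX Mixed. In NfiX CD1 both medians were 6.13.

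A minority of the guidance genes had a bound promoter, most of those in the NfiB libraries, as over all genes. A peak summit lay within 1 kb of a TSS for 10 of the 35 genes, 28.6% (16.3 to 45.1), against 16.7% of all genes, which lies inside the interval. In both libraries of a factor it did for 8, 22.9% (12.1 to 39.0), against 9.30% of all genes. For Ephb1, Ephb2, Ephb3, Epha3, Dcc, Neo1 and Unc5c the factor was NFIB. For Epha4 it was NFIA and NFIB, at the internal TSS named above. Unc5a had a promoter summit in NfiB CD1 alone and Unc5d in NfiX Mixed alone. NfiX CD1 had a promoter summit at 0 of the 35 genes, against 0.823% of all genes. Promoter peaks were weak: with 7497 of the strongest peaks from each library 1 of the 35 genes, Epha4, kept a promoter summit, against 2.22% of all genes.

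At the Ephb1 promoter (chr9:102354700-102355028) the folds were 3.49 in NfiB CD1 and 3.38 in NfiB Mixed, at the Neo1 promoter (chr9:59036546-59037151) they were 2.56 and 2.49, and in the Ephb2 region 0.744 kb inside intron 1 (chr4:136834877-136835153) they were 2.59 and 2.46. No other library had a peak in these 3. That of Unc5c (chr3:141464607-141465610), which also covers the antisense gene Gm15688, had folds of 2.60 for NfiA Mixed, and 4.81 (CD1) and 3.73 (Mixed) for NfiB. That of Epha3 (chr16:63863979-63864402) had folds of 3.18 for NfiA Mixed, 3.37 (CD1) and 4.02 (Mixed) for NfiB, and 3.08 for NfiX Mixed.

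The promoters of Epha3, Ephb1 and Neo1 are shown because a region of both NfiB libraries lay on each. Epha3 holds a match to a looser form, the palindrome with arms of 4 letters, and the others do not. That form was not a planned motif. None of the promoters shown holds the full palindrome or TTGGCA. They are RefSeq promoter sequences (GRCm38.p6), cut to the bases before the first exon: chr16:63864176-63864425 (minus strand) for Epha3, chr9:102354695-102354943 (minus strand) for Ephb1 and chr9:59036442-59036691 (minus strand) for Neo1. Capitals mark a match to the palindrome with arms of 4 letters, TGGCNNNNNGCCA.
Epha3: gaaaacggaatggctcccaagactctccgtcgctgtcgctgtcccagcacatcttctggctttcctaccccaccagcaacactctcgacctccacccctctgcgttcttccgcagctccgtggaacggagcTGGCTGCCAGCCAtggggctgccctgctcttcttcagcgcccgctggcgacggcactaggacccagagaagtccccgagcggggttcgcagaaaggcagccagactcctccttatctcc
Ephb1: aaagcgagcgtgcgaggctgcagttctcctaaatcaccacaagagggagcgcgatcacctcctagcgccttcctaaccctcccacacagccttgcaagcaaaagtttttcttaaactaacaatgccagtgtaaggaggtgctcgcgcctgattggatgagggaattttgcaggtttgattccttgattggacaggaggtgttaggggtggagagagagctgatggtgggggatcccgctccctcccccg
Neo1: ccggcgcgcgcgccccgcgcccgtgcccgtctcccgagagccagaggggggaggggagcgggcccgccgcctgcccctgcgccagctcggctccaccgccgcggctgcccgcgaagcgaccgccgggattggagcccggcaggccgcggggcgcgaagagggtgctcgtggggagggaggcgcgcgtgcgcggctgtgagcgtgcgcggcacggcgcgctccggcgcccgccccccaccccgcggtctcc

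The Epha3 match lay 113 bases upstream of the RefSeq start, and the summits were 59 bp from its centre for NfiA Mixed, 19 bp (CD1) and 56 bp (Mixed) for NfiB, and 45 bp for NfiX Mixed. RefSeq windows of 250 bases before to 50 after a start matched 30 of the 35 genes, with 35 windows. On either strand, TGGCNNNNNGCCA was in 2 of the 35 windows, 5.71%, those of Epha3 and Epha8, against 0.807% of 32851 windows of all genes. The full palindrome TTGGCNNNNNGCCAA, which contains it, was in 0 of 35, against 0.0365%. The arm TTGGCA was in 3 of 35, 8.57%, against 14.1%. The Epha8 window held no peak. A match describes these letters only.

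Bound DNA could be read outside promoters only where it lay in annotated exons, since no genome sequence was used here. Of the regions of the guidance genes 15 had such a window, 50 bp to each side of a summit. The arm TTGGCA was in 6 of the 15, 40.0% (19.8 to 64.3), against 20.8% of 3423 windows of other regions. The palindrome with arms of 4 letters was in 1, 6.67%, against 6.37%, and the full palindrome in 0, against 0.906%. The introns, which hold most of the common regions, were not searched.

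Lists of genes that act with the guidance receptors, chosen with earlier results of these data known, were read in the same way. A list of 14 other ligands and co-receptors had 13 genes with a region, 92.9% against 48.6% of all genes, and 8 with a common one, 57.1% (32.6 to 78.6) against 13.2%. Averaged over the length classes of these genes, the share of all genes with a common region was 27.7%, and 64.5% had any region. The common region lay inside the gene in 7, Adam10, Draxin, Dscam, Dscaml1, Gpc1, Ntng1 and Ntng2, and outside it in Ntn4. Dscam, which encodes a netrin co-receptor, had 25 regions and 5 common ones, and the strongest had folds of 9.37 to 24.7. Ntng1, which encodes the membrane-anchored netrin-G1, had 2 common regions, the stronger with folds of 8.77 to 23.4. Draxin, a secreted netrin antagonist, had 1, with folds of 9.07 to 18.1. Rgma and Rgmb, ligands of neogenin, had 11 and 8 regions, none common, and Efnb1, the ephrin-B1 gene, had 2, none common.

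A list of 36 cytoplasmic effectors had 31 genes with a region, 86.1% against 48.6% of all genes, and 17 with a common one, 47.2% (31.99 to 62.99) against 13.2%. Averaged over the length classes of the effectors the shares of all genes were 79.9 and 35.6%, and the share with a common region lies inside the interval. The common region lay inside the gene in 16, and outside it in Rasa1. Srgap1, Srgap2 and Srgap3 encode GTPase activators that bind Robo receptors, and had 2, 6 and 3 common regions. Chn1 and Chn2, genes of the chimaerins, GTPase activators that include an effector of EphA4, had 3 and 5. Kalrn and Vav3, which encode guanine nucleotide exchange factors, had 6 and 5, and Dock1, another, had 3. Fyn and Ptk2, genes of tyrosine kinases, had 1 and 2. Ablim1, Anks1b, Arhgap39, Grip1, Itsn1 and Myo10 made up the rest, with 1 to 3 each. Rac1, Rhoa and Cdc42, the GTPases themselves, had 0 regions, as did Src and Usp33. With no allowance for length, the common regions per megabase came to 4.96 for the ligands and co-receptors and 5.24 for the effectors, against 2.35 in all genes.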

How the data were processed

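The authors deposited 1 peak list per ChIP library, and no list over pooled samples. Per the submitters' processing notes, the tools were Bowtie2 2.2.6, SAMtools 1.4.1 and MACS2 2.1.0, on mm10. Read filters, thresholds and any use of the inputs were not given in the sources used here. Each deposited peak carries a fold enrichment (a ratio) from the authors' peak caller. The deposited p-values and q-values are on a −log10 scale, and the deposited integer score was not used. Fragments at a summit were recovered from the fold and p-value under a Poisson model, with 100% of peaks solved in every list to within 0.002 on the −log10 p scale. The median summit of these genes held 23 to 31 fragments, which limits the precision of folds.

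Peaks sharing 1 bp or more were joined into regions over the 6 libraries with Python 3.11.15 and pandas 2.3.3, and assigned to GENCODE M21 genes. Merging, assignment and fragment recovery were tested on simulated data. Libraries were grouped by factor, and the shares of genes and regions were set beside those of all genes or regions, with no test of significance. The members and gene lists were chosen with earlier results of these data known. The rule for named regions took the strongest common region of each gene by mean log2 fold. The motif search was planned on the genome and was made on promoters and exons. Alternatives were a −log10 q of 5, equal list lengths, peaks cut to 50 bp on each side of the summit, other assignment rules and promoter widths, and each library left out.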

Additional observations from a re-analysis of the deposited data

How the results depend on the processing

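No paired analysis was possible because the results come from no test. Of 60 values recomputed under alternatives 55 stayed within 1.5 times the main count, or within the interval of the main share. With equal list lengths 34.6% of the regions of the guidance genes were common, against 25.6% of all regions, and 1 gene had a promoter summit. A region in both libraries of a factor was then held by 18 genes for NfiA, 17 for NfiB and 17 for NfiX. The shares of all genes were 12.5, 12.6 and 11.6%, so the higher NfiB count of the full lists was not seen. Shorter lists leave fewer weak peaks. With each library left out, the common share was 18.3 to 28.6%, genes with a common region 20 to 21, with any region 26 to 27 and with a promoter summit 9 to 10; the highest share was without NfiX CD1, where 21 of the 35 genes, 60.0%, had a common region, against 21.3% of all genes in place of 13.2%. Searching exonic windows for the palindrome with arms of 4 letters, an alternative chosen after seeing the data, gave 6.67% in place of 40.0%; it is another motif. By gene body alone 17 genes had a common region, against 7.88% of all genes, and by nearest TSS alone 15, against 11.4%. Windows of 500 bp and 2 kb around a TSS gave 8 and 12 genes with a promoter summit, against 14.3 and 19.6% of all genes.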

Other observations

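Common regions of the guidance genes often had another one close by. Of the 57 common regions 19, 33.3%, lay within 10 kb of another common region, against 16.9% of all 6062 common regions. The pairs were in Ephb1, Ephb2, Neo1, Slit1, Slit3 and Unc5b. The closest was in intron 4 of Slit3, with 0.416 kb between chr11:35336525-35337004 and chr11:35337421-35337890. In Slit1, 3 common regions lay in a row in intron 4, with gaps of 1.13 and 6.63 kb. Peaks were merged only where they overlapped, so a broad bound stretch whose peaks do not overlap can be counted as more than 1 region. How much of the density of these genes comes from that was not tested. The shares within 10 kb were not matched for gene length or for the density of regions.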
